A study of Mus musculus with 4 samples.

Results

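The genes described here are those of the cytosolic ribosomal proteins, read for NKX2.2 occupancy in alphaTC6 cells, a mouse alpha cell line derived from a glucagonoma, a tumour of the islet cells that make glucagon. The members were found by a rule on gene symbols, which uses no measured value. All protein-coding genes of the GRCm38 RefSeq table were taken whose symbol is Rpl or Rps followed by a number and optional letters, together with Rplp0, Rplp1, Rplp2 and Rpsa, without the Rps6k kinases and the pseudogenes. The rule gave 84 of 21887 protein-coding genes, 52 of the large subunit and 32 of the small subunit.

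The series measured DNA bound by the homeodomain transcription factor NKX2.2 by chromatin immunoprecipitation and sequencing (ChIP-seq), with 2 ChIP samples and 2 samples of input DNA. All 4 samples came from wild-type alphaTC6 cells of 1 line, and they differed by the antibody enrichment alone. The file analysed was a single list of 7384 peak summits, the bases of highest enrichment. Each has a score by the authors, taken here as the −log10 q-value against input. The list gives no value per library, so depth is unknown, no result has a replicate error, and no test between samples was possible. Transcription was not measured in these files, so neither the activity of the promoters nor the identity of the line was checked.

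Ribosomal proteins are the protein part of the ribosome, whose small subunit reads the messenger RNA and whose large subunit joins the amino acids. Their genes are short and are transcribed at high rates in nearly every cell, including endocrine cells that secrete peptide hormones. Many of their messenger RNAs begin with a terminal oligopyrimidine (TOP) tract, a C followed by a run of pyrimidines, through which their translation is tied to growth signals. They make a set of promoters known for high activity in most cell types, and the question put to the list was how often summits lie at them.

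Promoter windows of 6 ribosomal protein genes are shown first, to place the strongest summits at starts in their sequence. The sequences are from RefSeq on GRCm38 and run on the gene's strand from 250 bases before the annotated start to 20 bases from it. The first 4 had the highest-scoring summits within 1 kb of a start, and capitals mark the summit base with 5 bases on each side. Rpl10 and Rpl10a, the first members by symbol with a window and no summit within 10 kb, have no capitals. The windows were chr2:180257129-180257398 for Rps21, chr5:115559217-115559486 for Rplp0, chr9:66945836-66946105 for Rps27l, chr15:5116363-5116632 for Rpl37, chrX:74270566-74270835 for Rpl10 and chr17:28328221-28328490 for Rpl10a, all on the plus strand.
Rps21: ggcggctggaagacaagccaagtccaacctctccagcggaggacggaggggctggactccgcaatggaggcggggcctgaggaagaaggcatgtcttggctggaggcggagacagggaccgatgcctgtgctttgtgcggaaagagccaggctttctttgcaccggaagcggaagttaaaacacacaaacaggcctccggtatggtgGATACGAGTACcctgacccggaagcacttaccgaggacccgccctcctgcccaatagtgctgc
Rplp0: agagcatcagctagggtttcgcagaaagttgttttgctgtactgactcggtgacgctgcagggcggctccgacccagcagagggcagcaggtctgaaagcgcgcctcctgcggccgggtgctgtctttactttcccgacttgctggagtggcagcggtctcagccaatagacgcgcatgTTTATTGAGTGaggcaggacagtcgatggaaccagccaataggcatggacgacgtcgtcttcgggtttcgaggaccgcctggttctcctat
Rps27l: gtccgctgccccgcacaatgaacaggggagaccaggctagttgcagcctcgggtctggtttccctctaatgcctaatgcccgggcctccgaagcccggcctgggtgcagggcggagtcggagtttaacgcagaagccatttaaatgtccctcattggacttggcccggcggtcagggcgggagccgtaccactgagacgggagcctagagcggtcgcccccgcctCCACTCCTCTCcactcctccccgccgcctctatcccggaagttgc
Rpl37: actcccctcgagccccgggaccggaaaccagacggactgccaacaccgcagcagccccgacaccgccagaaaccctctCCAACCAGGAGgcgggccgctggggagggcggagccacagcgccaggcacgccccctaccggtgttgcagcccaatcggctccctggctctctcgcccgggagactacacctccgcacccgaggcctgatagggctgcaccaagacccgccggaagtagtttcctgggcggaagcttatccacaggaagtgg
Rpl10: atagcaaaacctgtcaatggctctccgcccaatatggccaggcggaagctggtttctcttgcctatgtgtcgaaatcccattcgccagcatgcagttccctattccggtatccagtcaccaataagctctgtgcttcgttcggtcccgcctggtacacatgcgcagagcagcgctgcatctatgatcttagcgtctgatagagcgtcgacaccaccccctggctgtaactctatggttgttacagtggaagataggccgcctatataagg
Rpl10a: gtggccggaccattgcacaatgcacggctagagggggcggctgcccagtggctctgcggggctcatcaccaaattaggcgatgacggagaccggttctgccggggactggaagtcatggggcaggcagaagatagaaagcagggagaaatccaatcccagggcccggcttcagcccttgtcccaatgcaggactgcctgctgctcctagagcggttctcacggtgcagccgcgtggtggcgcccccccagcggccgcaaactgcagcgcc

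Ribosomal protein genes had summits about as often as protein-coding genes in general. A summit in the gene or within 1 kb of it was found at 19 of 84 genes, 22.6% (95% Wilson interval 15.0% to 32.6%, counting error only), against 19.2% of all 21887 protein-coding genes. Within 10 kb it was 28 of 84 genes, 33.3% (95% Wilson interval 24.2% to 43.9%), against 25.8%. The 1 kb share is near the background and is no result about these genes, and the interval of the 10 kb share also holds its background value. By subunit, a summit within 1 kb was found at 12 of 52 large subunit genes (23.1%) and 7 of 32 small subunit genes (21.9%). At 10 kb the numbers were 20 of 52 (38.5%) and 8 of 32 (25%), and the difference was not tested.

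The background changes with gene length. The median ribosomal protein gene spans 3169.5 bp and the longest, Rps15a, 11774 bp, while the median protein-coding gene spans 17.2 kb. Among the 8797 protein-coding genes no longer than Rps15a, 10.4% had a summit in the gene or within 1 kb and 18.1% had one within 10 kb. The shares of the ribosomal protein genes were higher than these at both distances, and both 95% intervals lie above the short-gene values. Ribosomal protein genes also had more neighbours, with a mean of 1.61 other protein-coding genes within 10 kb, against 1.08 for all protein-coding genes and 1.14 for the short ones. The parts of gene length and gene density in the shares were not tested.

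**Figure D1:**
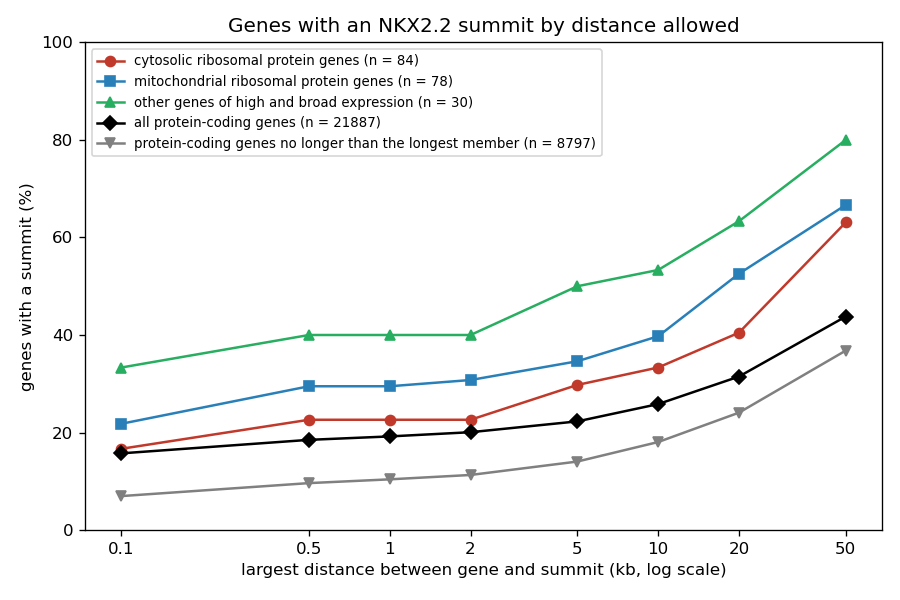
Share of genes with a summit in the gene body or within the distance on the x axis (kb, log scale), for cytosolic ribosomal protein genes and 4 other sets. The ribosomal protein genes lie close to all protein-coding genes up to 2 kb, at 16.7% within 100 bp and 22.6% from 500 bp to 2 kb, and lie above the short genes throughout; by 50 kb they reach 63.1%, against 43.8% of all protein-coding genes.

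No ribosomal protein gene had its nearest summit between 487 bp, at Rps18, and 2525 bp, at Rpl14. The share of all protein-coding genes also rose little there, from 18.5% within 500 bp to 20.1% within 2 kb. The gap is therefore no result about these genes. The 10 kb limit fell between Rpl9, whose nearest summit was 7.76 kb away, and Rps15, at 10.1 kb. Rps9 and Rps15a followed at 10.3 kb and 13.6 kb. The median distance from a ribosomal protein gene to its nearest summit was 30.3 kb. It was 71.5 kb for all protein-coding genes and 104.7 kb for those no longer than Rps15a.

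At the starts themselves, summits were more frequent at ribosomal protein genes than at the average gene. Among genes with a CpG-rich promoter window alone, they were about as frequent at ribosomal protein genes as at all genes. Among the other genes with a window, they were more frequent at the few ribosomal protein genes. A promoter window was found by symbol for 64 of the 84 genes. A summit lay within 1 kb of an annotated start at 13 of 64, 20.3% (95% Wilson interval 12.3% to 31.7%), against 12.1% of 17492 protein-coding genes with a window. All 13 of these genes had the summit within 250 bp of the start, where the background was 9.12%. CpG-rich windows were defined as those with at least 50% G and C and an observed to expected CpG ratio of at least 0.6, a comparison added after seeing the data. Among genes with such a window, 9 of 48 ribosomal protein genes had a summit within 1 kb of a start, 18.8% (95% Wilson interval 10.2% to 31.9%), against 20.8% of 8004 protein-coding genes. Of all protein-coding genes whose window was not CpG-rich, 4.85% had one. Ribosomal protein genes of that kind were the remainder of the 64 beyond the 48. Those with a summit were Rpl15, Rpl22, Rpl27 and Rpl41, a larger share than 4.85%, from few genes. Rpl15, with a CpG ratio of 0.596, and Rpl41, with 49.3% G and C, lay just under the cut-offs. CpG-rich windows made up 9 of the 13 ribosomal protein windows with a summit (69.2%) and 39 of the 51 without (76.5%). The part of CpG content in the shares was not tested. Members without an entry in the promoter table include Rpl17, Rpl21, Rpl23a, Rpl29, Rpl3, Rpl30, Rpl32, Rpl36, Rpl7, Rpl8, Rplp1, Rps14, Rps20, Rps27a and Rps29.

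The summits at starts were placed tightly. Of the 13, 11 lay upstream of the start and 2 downstream, from 181 bp upstream at Rpl15 to 143 bp downstream at Rpl22, with a median of 48 bp upstream. For the 2122 protein-coding genes with a summit within 1 kb of a start, 68.9% of the nearest summits lay upstream, 68.2% lay within 200 bp, and the median was 67 bp upstream. All 13 summits at ribosomal protein genes lay within 200 bp.

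**Figure D2:**
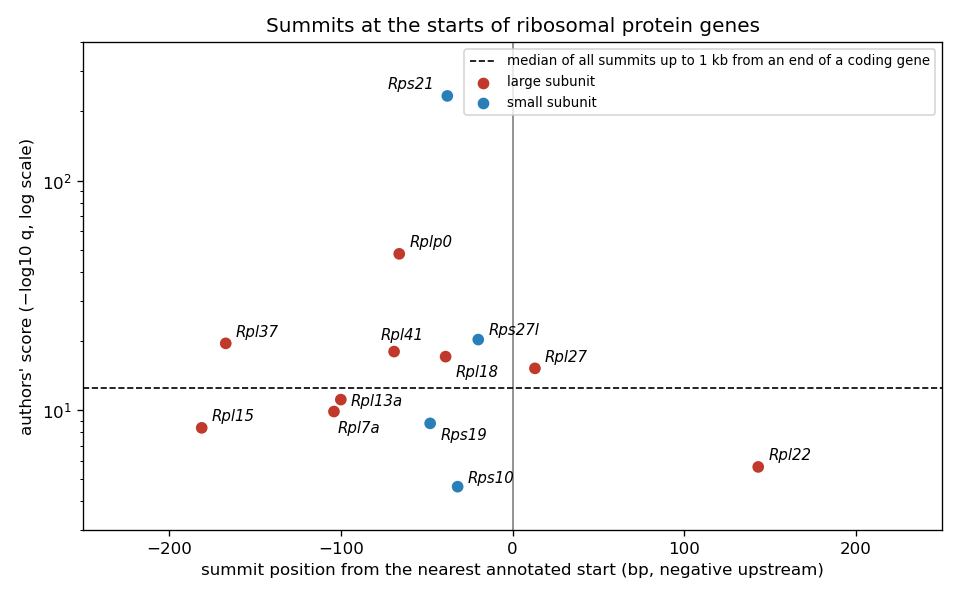
Position of each summit from the nearest annotated start (x axis, bp) against the authors' score (y axis, −log10 q, log scale) for the 13 ribosomal protein genes with a summit within 1 kb of a start. Points are single summits, coloured by subunit, and the dashed line is the median score of all summits no more than 1 kb from an end of a protein-coding gene, 12.5; Rps21, at 234, stands above all others.

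Most scores near ribosomal protein genes were ordinary among summits at gene ends, with Rps21 apart. The 20 distinct summits within 1 kb of a member had a median score of 16.1 and a range from 4.45 to 234. The median over 7380 summits on assembled chromosomes was 13.7, and over the 2155 summits no more than 1 kb from either end of a protein-coding gene it was 12.5. The sets differ in definition, since the 20 also count summits inside a gene. Those of Rpl18, Rpl22 and Rps27l lay more than 1 kb from either end of their own gene. Of the 20 summits, 12 scored above the median of the summits at gene ends. Their lower and upper quartiles were 8.92 and 19.7, against 7.51 and 23.9 for the summits at gene ends. A score of 100 or more was found at 1 of the 20, the summit of Rps21, and at 3.34% of the summits at gene ends.

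Among the small subunit genes, Rps21 (gene ID 66481, position 180257379 to 180258444 of chromosome 2) carried the strongest summit at any ribosomal protein gene start. It lay 38 bp upstream of the start, at position 180257341, with a score of 234 and rank 118 of the 7380 placed summits. No other protein-coding gene lay within 1 kb of it. Rps27l, a copy of Rps27 known as a target of p53, had a summit 20 bp upstream of a start with a score of 20.3. Rps19 and Rps10, both known from inherited Diamond-Blackfan anaemia, had weaker summits 48 bp and 32 bp upstream of their starts, with scores of 8.75 and 4.64. Rps27a, which encodes a ribosomal protein fused to ubiquitin, had a summit 128 bp outside the gene with a score of 8.98. That summit lay inside the neighbouring gene Clhc1.

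Rps18 had its summit at the start of another gene. This summit, with a score of 4.45, lay 4154 bp downstream of the Rps18 start, 487 bp past the gene and 23 bp from the start of B3galt4, a glycosyltransferase gene. It was the lowest score of the 20.

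Among summits within 1 kb of large subunit genes, the highest score belonged to Rplp0 (gene ID 11837, position 115559467 to 115563729 of chromosome 5), which encodes the base of the ribosomal stalk that engages elongation factors. Its summit lay 66 bp upstream of the start, at position 115559401, with a score of 48.0 and rank 937. Of the other stalk genes, Rplp2 had no summit nearer than 3695 bp and Rplp1 had none within 10 kb. Rpl37a had a summit inside the gene, 1597 bp downstream of the start, with a score of 33.8. No other protein-coding gene lay within 10 kb of this summit. Rpl36 had a summit 91 bp outside the gene with a score of 21.7, and Micos13 began 232 bp from it. Rpl37 had a summit 167 bp upstream of the start with a score of 19.5, which lay inside Card6.

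Rpl41 and Rpl18 had summits of nearly equal score, at 17.98 and 17.1. The summit of Rpl18 lay 39 bp upstream of its start and 30 bp from the start of Sphk2, which encodes a sphingosine kinase. Rpl41, which encodes the smallest ribosomal protein, was the only member with 2 summits within 1 kb. The first lay 69 bp upstream of its start. The second, with a score of 13.2, lay 1358 bp downstream of that start, inside Zc3h10 and 64 bp from a start of that gene.

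Scores at the remaining large subunit genes were lower. The summit of Rpl27 lay 13 bp downstream of the start with a score of 15.2. Rpl13a, whose protein also acts in the control of translation under interferon, had a summit 100 bp upstream with a score of 11.1. At Rpl7a the summit lay 104 bp upstream of the start with a score of 9.85, and 61 bp from the start of Med22, a Mediator subunit gene. Rpl15, on chromosome 14, had a summit 181 bp upstream with a score of 8.37, inside Nkiras1. Rpl22, known for its role in lymphocyte development, had a summit 143 bp downstream of a start with a score of 5.65.

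Some of these summits also lay close to neighbouring genes. Of the 19 genes with a summit within 1 kb, 8 had such a summit that lay within 1 kb of another protein-coding gene as well. At 4 of them (Rpl15, Rpl37, Rps18 and Rps27a) every such summit lay nearer to or inside another gene. The share behind the 8 of 19 was not counted for all protein-coding genes, so it is no result about these members. Counting for each member only summits to which no other protein-coding gene was nearer left 15 of 84 genes at 1 kb (17.9%, against 17.5% of all protein-coding genes under the same rule) and 17 of 84 at 10 kb (20.2%, against 19.2%). Both shares are near their background. Genes with a summit within 1 kb had a mean of 2.05 coding neighbours within 10 kb, and those without had 1.48. Their median lengths were 3183 bp and 3139 bp. At Rpl18, Rpl7a and Rps27l the summits upstream of a start still lay inside the annotated gene, which reaches further upstream.

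Summits between 1 and 10 kb from a member mostly lay nearer to other genes. They were the only summits of 9 members, and at 7 of the 9 another gene was nearer. The same share was not counted for all protein-coding genes, so the count is no result about these members. Rplp2, a stalk gene, had the highest score of these, 39.4, at a summit 3695 bp away and inside Pidd1, 69 bp from its start. Rpl38 followed with 17.1, at a summit 2986 bp away that lay 149 bp from Ttyh2. The summits of Rpl9 (score 7.34, inside Lias), Rpl35 (6.60, at Wdr38), Rpl29 (6.19, at Acy1) and Rpl19 (2.28, at Stac2) were also nearer to the gene named. Rpl12, with a score of 6.17 at 3630 bp, and Rpl14, with a score of 4.87 at 2525 bp, were the only members of this class nearest to their summit.

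Rpl41 and Rpl18 had further summits at this distance. A summit with a score of 248 and rank 109, the highest within 10 kb of any ribosomal protein gene, lay 4985 bp from Rpl41 and 435 bp from Zc3h10. Around Rpl18 were 3 more, with scores of 39.7 and 7.36 inside Dbp, a circadian transcription factor gene, and 15.0 inside Fam83e.

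No summit within 10 kb was found at 56 members, 32 of the large subunit and 24 of the small subunit. The former were Rpl10, Rpl10a, Rpl10l, Rpl11, Rpl13, Rpl17, Rpl21, Rpl23, Rpl23a, Rpl24, Rpl26, Rpl27a, Rpl28, Rpl3, Rpl30, Rpl31, Rpl32, Rpl32l, Rpl34, Rpl35a, Rpl36a, Rpl36al, Rpl37rt, Rpl39, Rpl39l, Rpl3l, Rpl4, Rpl5, Rpl6, Rpl7, Rpl8 and Rplp1. They include Rpl5 and Rpl11, which bind the p53 regulator Mdm2, and Rpl3l, Rpl10l and Rpl39l, copies known from muscle or testis. The latter include Rps12, Rps13, Rps14, Rps15, Rps15a, Rps16, Rps2, Rps20, Rps23, Rps24, Rps25, Rps26, Rps27, Rps27rt, Rps28, Rps29, Rps3, Rps4x, Rps6, Rps7, Rps9 and Rpsa. Of the 8 members whose symbol marks a copy, with an l or rt at its end, 1 had a summit within 10 kb, Rps27l. That share is 12.5%, against 25.8% of all protein-coding genes and 18.1% of those no longer than Rps15a. Its Wilson interval, 2.24% to 47.1%, holds these background values, so the count is no result about the copies. A missing summit shows only that no peak was called.

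By chromosome, the 14 members on chromosome 7 included 4 with a summit within 1 kb, and the 7 members on chromosome 17 included 3. The X chromosome holds 4 members (Rpl10, Rpl36a, Rpl39 and Rps4x) and none had a summit within 10 kb, on a chromosome with 62 summits in all. Of the 2 members on chromosome 14, with 76 summits, Rpl15 had one and Rps24 had none. The share of all protein-coding genes with a summit was not counted by chromosome. The counts of members are therefore no result about differences between chromosomes.

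Other parts of the translation machinery were set beside the ribosomal protein genes, each as the count of genes with a summit in the gene or within 1 kb, for which the background is 19.2%. Of 78 genes of mitochondrial ribosomal proteins, which build the separate ribosome of mitochondria, 23 had one (29.5%), with the highest scores at Mrpl1 (57.7), Mrps36 (45.4) and Mrps21 (36.8). Of 31 ribosome assembly genes 10 had one (32.3%), led by Grwd1 (37.1), Bop1 (32.4) and Riok1 (17.3). Of 9 genes of RNA polymerase I and its factors, which transcribe ribosomal RNA, 5 had one, led by Taf1b (33.8), Polr1a (16.9) and Polr1c (12.2). Of 14 translation factor and other TOP genes 3 had one, Eef1d (10.9), Eif3h (6.04) and Npm1 (3.31). The 5 further cytosolic ribosome genes outside the name rule included 2, Rpl22l1 (45.3) and Rpl7l1 (13.2), while Fau and Rack1 had none. Rps3a1, a small subunit gene that the name rule also leaves out, had its nearest summit 23.1 kb away.

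A list of 30 other genes of high and broad expression, from the cytoskeleton, glycolysis and protein folding, gave 12 with a summit within 1 kb (40.0%, 95% Wilson interval 24.6% to 57.7%). Its highest scores were at Ywhaz (141), Gapdh (68.0) and Ubb (67.6). Measured to starts, 9 of its 22 genes with a window had a summit within 1 kb (40.9%, 95% Wilson interval 23.3% to 61.3%), against 13 of 64 ribosomal protein genes (20.3%). The background for starts was 12.1% of all protein-coding genes with a window and 20.8% of those with a CpG-rich window. The difference between these lists was not tested, and the intervals of the lists overlap.

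**Figure D3:**
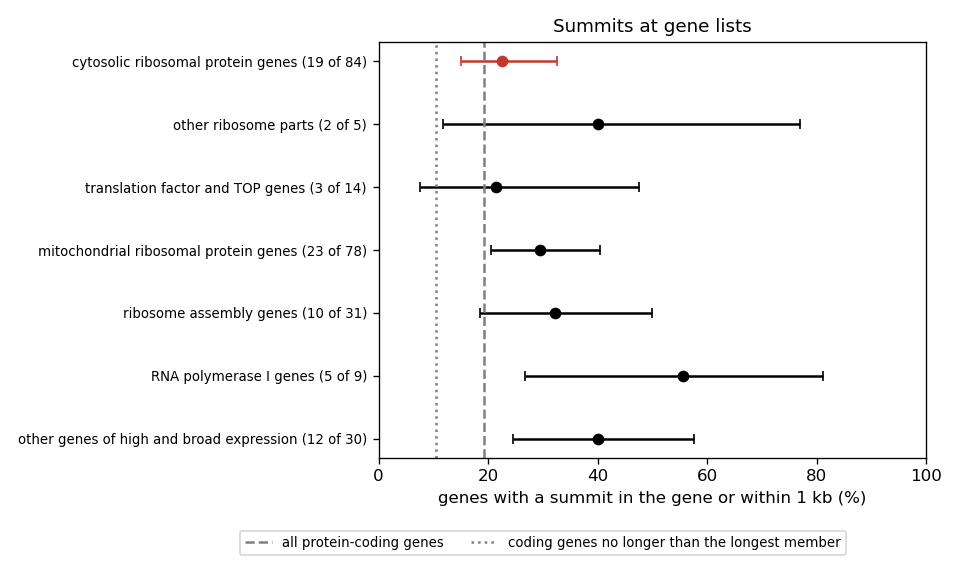
Share of genes with a summit in the gene or within 1 kb (x axis, %) for 7 gene lists; points are shares, bars are 95% Wilson intervals for counting error only, and the numbers of genes stand beside the names. The ribosomal protein genes, at 22.6%, lie beside the dashed line for all protein-coding genes at 19.2%, and their interval lies above the dotted line for short genes at 10.4%.

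The promoter windows were then searched for short sequences, on both strands of 300 bases, 250 before the start and 50 from it, with 1 window per gene, the most upstream. The core of the NKX2-2 site, AAGTG, occurred in 26 of 64 ribosomal protein windows (40.6%), against 45.4% of all 17492. It was present at 6 of 13 with a summit within 1 kb of a start and at 20 of 51 without. The longer form AAGTGG, which contains the core, was in 9 of 64 (14.1%), against 17.0% of all windows. Neither share was above that of all promoters.

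Some other features were more frequent in ribosomal protein windows than in all windows. The ETS family letters CCGGAAG were in 24 of 64 (37.5%), against 11.9% of all windows and 22.6% of the 2109 windows of other genes with a summit within 1 kb of a start. A TOP start, a C with at least 4 pyrimidines after it at the annotated start, was found in 14 of 64 (21.9%), against 2.17% of all. The YY1 letters ATGGCGG were in 9 of 64 (14.1%), against 5.44%. CpG-rich windows made up 48 of 64 (75%), against 45.8% of all and 78.4% of those of other genes with a summit at the start. The GC box letters GGGCGG were in 36 of 64 (56.2%), against 46.3%. The TATAAA box was in 7 of 64 (10.9%), against 13.3%, and the CACGTG E-box in 5 of 64 (7.81%), against 7.91%.

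Between ribosomal protein genes with and without a summit, the GC box differed most. The letters GGGCGG, bound by Sp1 and KLF factors, were in 12 of the 13 windows with a summit within 1 kb of a start and in 24 of the 51 without (47.1%). In windows of other genes with a summit they occurred in 68.3%, and in all windows in 46.3%. The median share of G and C was 60.7% in the 13 windows and 56.3% in the 51. The difference was picked out of 10 features after their values were seen and was not tested. The KLF letters CACCC were in 8 of the 13 and 28 of the 51, against 58.5% of all windows.

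**Figure D4:**
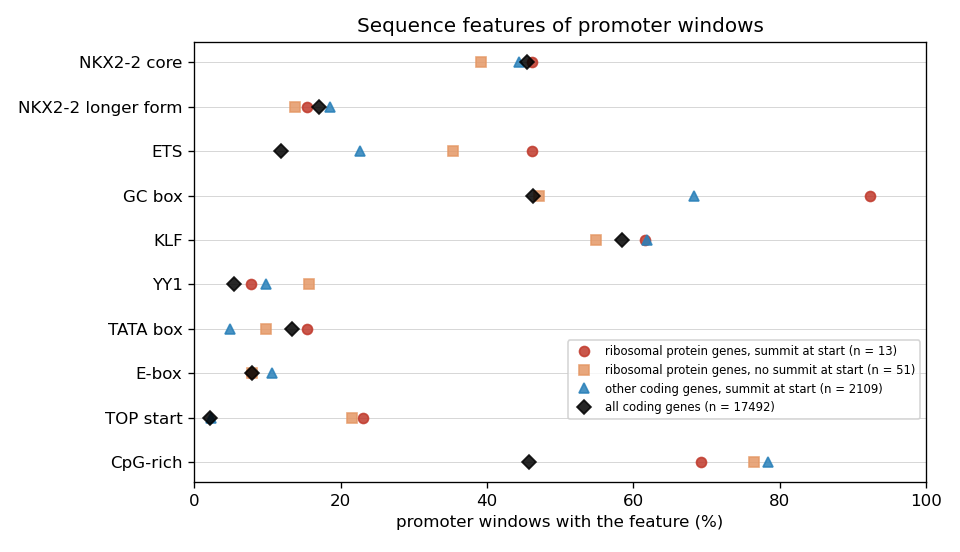
Share of promoter windows that hold each feature (x axis, %) for ribosomal protein genes with (13) and without (51) a summit within 1 kb of a start, other protein-coding genes with a summit (2109) and all protein-coding genes (17492). The NKX2-2 letters lie together in all 4 groups, the ETS letters and the TOP start are more frequent in both ribosomal protein groups than in all genes, and the GC box reaches 92.3% in the ribosomal protein genes with a summit.

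The letters were also counted close to the summits. For 11 ribosomal protein summits, 50 bases on each side lay inside the window, and AAGTG was within them at 3 (Rps21, Rpl7a and Rpl15), against 19.7% of 931 summits in windows of other genes. CCGGAAG was within them at 5 (Rps21, Rps27l, Rps10, Rpl15 and Rpl41), against 12.2% of the others. GGGCGG was there at 5, against 44.5%. Over the whole windows of ribosomal protein genes, CCGGAAG was in 6 of the 13 with a summit at the start. It was also in 18 of the 51 without (35.3%), so its frequency was not limited to genes with a summit. In the Rps21 window printed above, AAGTG stands on the other strand 21 bp downstream of the summit and CCGGAAG on the gene's strand 15 bp downstream, and the start is a TOP start. The printed window of Rplp0 holds no AAGTG and no CCGGAAG. In the window of Rpl37, AAGTGG stands 184 bp downstream of the summit, while GGGCGG stands 24 bp downstream. A match is a description of the letters and not a site.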

How the data were processed

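ChIP and input DNA from alphaTC6 cells were sequenced, 2 samples each, grouped by the sample titles. Per the submitters' processing notes the tools were FastQC, Bowtie2 and MACS2 and the build was mm10, which is GRCm38. Versions, duplicate handling and pooling of replicates are not given in the sources used here. The deposited values are taken as −log10 q per peak, written by the authors' peak caller against input. Reads of ribosomal protein exons can also match pseudogenes, and their treatment is not given.

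Summit positions (BED start plus 1) were compared with the RefSeq gene and promoter tables of GRCm38.p6. The 4 summits outside assembled chromosomes were left out. A gene had a summit when one lay in its body or within 1 kb or 10 kb of it. Shares have 95% Wilson intervals. The list analysed here gives no value per library, so no test was run. The members and lists were chosen with earlier results of these data known. Named were all members with a summit within 1 kb (at most 25), those with summits only 1 to 10 kb away (at most 10), the 3 members nearest beyond, and at most 3 genes per comparison list, by score; some of these genes are counted but not reported here by name. Promoters were printed for the 4 members with the highest-scoring summits at starts and the first 2 by symbol without a summit. Alternatives covered the score minimum (5 and 10), merging within 500 bp, the distance, the members, the chromosomes and the background. Distances were tested on simulated data against a direct calculation. The scripts ran in Python 3.11.15 with matplotlib 3.10.9, scipy 1.17.1, pandas 2.3.3 and numpy 2.4.6.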

Additional observations from a re-analysis of the deposited data

How the results depend on the processing

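No paired analysis was possible because single libraries have no values in the list; leaving out a replicate was likewise not possible. The share of ribosomal protein genes with a summit within 1 kb fell to 14.3% at a score minimum of 10 (background 13.2%), outside the 95% interval of the reported share, and stayed inside it, from 16.7% to 29.8%, in 13 other alternatives. The 10 kb share was 17.9% at a score minimum of 10 (background 18.2%), 63.1% at 50 kb (background 43.8%) and 20.2% when only summits nearest to the member counted (background 19.2%); 9 others gave 28.6% to 40.5%. The score minimum removes summits, and the wider distance adds them, by construction. The short-gene alternative, counted among the 13 and the 9, changed only the background, to 10.4% at 1 kb and 18.1% at 10 kb. It could not move either share. The share at starts stayed between 12.5% and 22.1% in 11 alternatives, inside its interval, and the median score between 14.1 and 18.1 in 8. Measured to gene boundaries alone, 16 of 84 genes (19.0%) had a summit within 1 kb, against 11.4% of all protein-coding genes. The additions of Rps3a1 and of the CpG-rich background were chosen after seeing the data. Depth is unknown, which limits what a missing summit says.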

Other observations

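Ribosomal protein genes have left many processed copies in the genome, and these carry the gene's sequence without its promoter. Of 318 annotated pseudogenes named after ribosomal protein genes, 1 had a summit within 1 kb (0.314%), against 47 of 10609 pseudogenes of all kinds (0.443%). It was Rps25-ps1 on chromosome 6, with a summit of score 21.7 at a distance of 952 bp. Within 10 kb a summit was found at 24 of the 318 (7.55%), against 3.74% of all pseudogenes.

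Introns of ribosomal protein genes often hold small nucleolar RNA (snoRNA) genes, whose RNAs guide the modification of ribosomal RNA. The table places 58 snoRNA genes inside 29 of the 84 members. A summit within 1 kb was found at 4 of these 29 hosts (13.8%), among them Rpl7a, Rpl13a and Rpl37, and at 15 of the 55 other members (27.3%). Of 372 protein-coding snoRNA hosts of any kind, 105 had one (28.2%). None of these differences was tested, and the comparisons were chosen after seeing the data.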
